A study of Mus musculus with 12 samples.

Results

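The genes described here are the WNT ligands, their receptors and inhibitors, and the proteins that carry the WNT signal to the nucleus, in the mouse kidney line PT-22. They were chosen by name: 19 Wnt genes, 11 frizzled entries (Fzd), 4 Sfrp genes, 4 Dkk genes and 5 R-spondin entries (Rspo) taken by symbol pattern, and 17 listed genes, which makes 60 of the 55491 genes in the tables. The entries Fzd10os and Rspo4os are antisense transcripts that the symbol patterns also caught. The rule uses no measured value.

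PolyA RNA was sequenced in bulk from 12 libraries of PT-22, a line labelled as proximal tubule, in 4 groups of 3 libraries lettered A, B and C. All groups, the control included, carry the genotype Pax2-/-,Pax8fl/fl,Rosa-CreERT2: both copies of Pax2 are inactivated, Pax8 is flanked by loxP sites, and CreERT2 is a recombinase that 4-hydroxytamoxifen switches on. Control cells were untreated and collected at baseline, and the other groups were collected on day 2, day 6 or day 12 after 1 µM 4-hydroxytamoxifen, given to confluent cells for 2 days to deplete PAX8, a transcription factor of the kidney epithelium. A single line was used, no vehicle control or untreated library of a later day is among the 12, and 4-hydroxytamoxifen, Cre, PAX8 and time in culture cannot be told apart. The labels do not tie A, B and C to separate cultures, and every p-value therefore measures the spread among these 12 libraries alone, which may be technical.

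WNT proteins are secreted lipid-modified ligands that bind frizzled receptors together with the co-receptors LRP5 or LRP6. Without ligand, a destruction complex built on AXIN and APC marks β-catenin (Ctnnb1) for degradation, and with ligand β-catenin accumulates and binds TCF/LEF factors at target genes. In the kidney, WNT9B from the ureteric bud and WNT4 in the condensing mesenchyme drive the mesenchymal-to-epithelial transition that forms nephrons, and WNT11 acts at the ureteric tips.

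The smallest library was day 2 B with 4326667 counts and the largest day 2 C with 11654959, and mitochondrial genes took 3.75% to 5.70% of the counts, the most in day 2 B. Pax8 counted over the whole gene was not lower after treatment: it stood at 225 ± 3.46 CPM in control, then 402 ± 51.05 (day 2), 256 ± 10.9 (day 6) and 242 ± 10.5 (day 12) (mean ± SD, n = 3). Which exons were removed is not given in the labels, and a whole-gene count does not check a deletion of some exons, so day 2, day 6 and day 12 stand here for the libraries labelled so. CPM are counts scaled to a fixed library total, after TMM normalization. The proximal tubule label was checked against 16 markers, of which 9 had enough counts to be tested. Cdh16, Lrp2 and Aqp1 were present, while the transporter genes Slc34a1, Slc5a2 and Slc5a12, which define that cell type, had no count in any library. The transporter genes Slc13a3, Slc22a6, Slc22a8 and Slc22a12 had only a few counts each over all libraries.

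Of the 60 genes, 32 passed the filter on low counts and were tested among 13513 genes, 19 had counts below it, and 9 had no count in any library. A gene can pass the filter through the groups where it is high, as Wif1, Wnt6 and Lef1 did. Their control libraries together held 2, 17 and 25 counts. The counts of tested genes below are therefore a description. A gene is said to have risen or fallen where its Benjamini-Hochberg adjusted p over the 13513 genes, from edgeR's quasi-likelihood test, was under 0.05. Against control, 11 of the 32 rose and 4 fell at day 2, where 10.3% of all tested genes rose and 10.9% fell. At day 6, 17 rose and 4 fell, beside 26.7% and 27.6% of all tested genes, and at day 12, 19 rose and 4 fell, beside 26.1% and 26.6%. The median log2 fold change of the 32 was 0.14, 0.46 and 0.44 at the 3 days, beside medians of -0.0015, -0.0060 and -0.0028 over all tested genes. The 3 contrasts share the same control libraries. No test of the genes as a set was made.

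A change of at least 2-fold past the threshold was seen in 5 genes that rose and 1 that fell at day 2, beside 1.84% and 2.47% of all tested genes. The 5 were the ligand genes Wnt4, Wnt6, Wnt9a and Wnt10a and the transcription factor gene Lef1, and the gene that fell was Wnt11. At day 6 the numbers were 9 and 3, beside 7.24% and 6.02%, and at day 12 they were 9 and 4, beside 7.73% and 5.98%. The 9 genes were the same at both days: Wnt4, Wnt6, Wnt10a, Fzd1, Dkk3, Wif1, Ctnnb1, Lef1 and Tcf7l1. Wnt6, Lef1 and Wif1 passed the filter through treated groups, so the counts of 2-fold rises are a description too. Wnt7b, Wnt11 and Fzd4 fell at both days by at least 2-fold, and Lrp5 joined them at day 12. In bulk RNA, fewer cells of a type and less RNA per cell cannot be told apart.

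**Figure D1:**
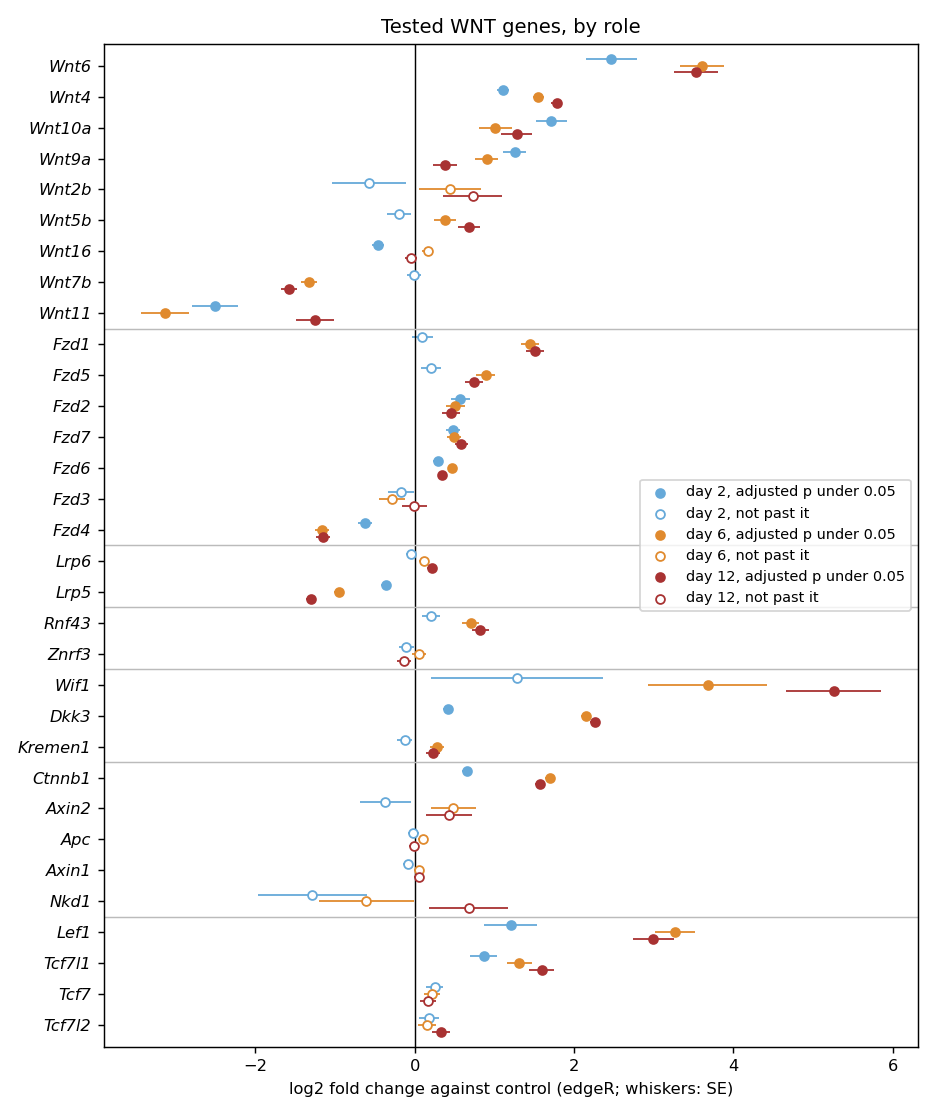
Log2 fold change against control (x axis, edgeR) of the 32 tested WNT genes by role, with whiskers for the SE and filled points where the adjusted p was under 0.05. Points right of the line at 0 are higher than control; Wif1 at day 12 and day 6 lies farthest right, and Wnt11 at day 6 farthest left.

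Among the ligands, 9 of the 19 genes were tested. At day 2, 4 rose and 2 fell, beside 10.3% and 10.9% of all tested genes. At day 6 and day 12, 5 rose and 2 fell. Of all tested genes, 26.7% rose and 27.6% fell at day 6, and 26.1% rose and 26.6% fell at day 12. The ligand falls at the later days (22.2%) are near those shares and are not a result about the ligands. Wnt4, Wnt6, Wnt9a and Wnt10a rose at all 3 days, Wnt11 fell at all 3 days, and Wnt7b fell from day 6. For 5 genes of the pathway that changed, the sequence before the start site is shown for reading beside the values that follow, for 4 ligands here and for Ctnnb1 further on. RefSeq promoter entries (GRCm38.p6) matched 38 of the 60 genes, and the bases outside annotated exons among the 250 before the start site are given in sense direction. Wnt4 is shown at chr4:137277385-137277488, Wnt6 at chr1:74771642-74771891, Wnt9a at chr11:59306680-59306927 and Wnt11 at chr7:98834862-98835111, all on the + strand. The Wnt4 window runs from 250 to 147 bases before the RefSeq start. Capitals mark motif matches: in Wnt9a the letters GCGTGAC, a core of the PAX2/5/8 motif, and in Wnt11 the reverse complement of CTTTGAT, a TCF/LEF motif.
Wnt4: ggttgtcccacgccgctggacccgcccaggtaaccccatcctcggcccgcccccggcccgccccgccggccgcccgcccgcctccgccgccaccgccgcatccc
Wnt6: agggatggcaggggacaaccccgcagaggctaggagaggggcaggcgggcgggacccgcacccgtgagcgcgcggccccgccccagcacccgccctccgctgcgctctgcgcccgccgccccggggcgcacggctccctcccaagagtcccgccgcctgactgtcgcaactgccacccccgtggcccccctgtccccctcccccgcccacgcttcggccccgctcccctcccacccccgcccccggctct
Wnt9a: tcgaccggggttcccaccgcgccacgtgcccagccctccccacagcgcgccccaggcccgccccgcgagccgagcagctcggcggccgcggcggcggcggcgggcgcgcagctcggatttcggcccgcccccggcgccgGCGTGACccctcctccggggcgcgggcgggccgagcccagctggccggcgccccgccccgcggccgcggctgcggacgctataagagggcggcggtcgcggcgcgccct
Wnt11: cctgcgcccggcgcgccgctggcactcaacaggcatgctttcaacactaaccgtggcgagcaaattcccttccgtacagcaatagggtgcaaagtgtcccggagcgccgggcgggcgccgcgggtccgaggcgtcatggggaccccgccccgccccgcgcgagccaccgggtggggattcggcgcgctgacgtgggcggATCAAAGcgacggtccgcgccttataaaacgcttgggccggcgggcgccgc

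All 4 windows were rich in G and C, from 70.8% in Wnt11 to 84.3% in Wnt9a. The search for TCF/LEF took the letters CTTTGAA and also the letters CTTTGAT, then the letters CTTTGTA and also the letters CTTTGTT. For PAX it took the letters GCGTGAC. Both searches covered both strands of the 250 bases before the start. The motif searches share no match. A TCF/LEF match was found in 6 of 48 promoters of the WNT genes (12.5%) and in 14.8% of all 32851 promoters. The PAX letters were found in 2 of the 48 (4.17%), in Wnt9a and in a Wnt5b promoter, and in 1.78% of all promoters. The Wnt11 match lies 51 bases before the start and the Wnt9a match 111 bases before it. A match is a description of the letters and not a binding site.

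Wnt4 (ENSMUSG00000036856, GRCm38 chromosome 4, 137277489 to 137299726, + strand), a ligand of nephron formation, had 39.05, 43.6 and 44.01 CPM in control A, B and C, then 92.6, 93.5 and 88.3 (day 2), 125, 131 and 115 (day 6) and 143, 148 and 145 (day 12). No group overlapped another, and each later group was above the one before it. Against control, the log2 difference was 1.11 ± 0.07 (SE) at day 2, 1.55 ± 0.07 at day 6 and 1.79 ± 0.07 at day 12, or 2.16-, 2.93- and 3.45-fold (edgeR adjusted p = 1.32e-14, 7.82e-20 and 9.27e-22).

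Wnt6 (ENSMUSG00000033227, GRCm38 chromosome 1, 74771892 to 74785322, + strand), a ligand expressed by the ureteric bud, had 0.806, 0.553 and 0.627 CPM in control, then 3.81, 3.51 and 3.84 (day 2), 9.35, 6.63 and 8.94 (day 6) and 7.93, 8.53 and 7.09 (day 12). Control was lowest and day 2 lay between control and the later days, which overlapped each other. The rise was 5.54-fold at day 2, 12.2-fold at day 6 and 11.5-fold at day 12 (log2 2.47 ± 0.32, 3.61 ± 0.27 and 3.53 ± 0.28, edgeR adjusted p = 1.72e-07, 1.84e-13 and 3.61e-13). Its neighbour Wnt10a (chromosome 1, 74791516 to 74804179) starts 6193 bases beyond the end of Wnt6 on the same strand.

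Wnt10a, a ligand of skin and tooth development, had 3.11, 6.09 and 4.29 CPM in control, then 12.9, 18.9 and 13.2 (day 2), 9.35, 7.404 and 10.1 (day 6) and 10.2, 10.6 and 11.5 (day 12). Its highest group was day 2, and all treated libraries were above all control libraries. In log2 units the change was 1.71 ± 0.20 at day 2, 1.01 ± 0.20 at day 6 and 1.28 ± 0.20 at day 12 (edgeR adjusted p = 1.73e-08, 7.94e-05 and 1.44e-06). From day 2 to day 6 it fell by 0.70 on the log2 scale (edgeR adjusted p = 0.00132), while Wnt6 next to it rose by 1.14 ± 0.20 (1.905e-05).

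Wnt9a, a ligand of joint formation, had 7.14, 8.44 and 8.36 CPM in control, then 17.1, 21.3 and 19.3 (day 2), 15.2, 16.4 and 13.1 (day 6) and 9.801, 9.43 and 11.9 (day 12). It was highest at day 2 and each later group lay lower, with no overlap between groups. Its log2 change against control was 1.26 ± 0.14, 0.90 ± 0.15 and 0.38 ± 0.15 (edgeR adjusted p = 1.51e-08, 2.44e-06 and 0.0327). The day 12 call was lost with DESeq2 (adjusted p = 0.0671), without the filter on low counts (0.0525), with limma on log2(TPM + 1) (0.0523), without control A (0.133) and without day 12 C (0.196).

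Wnt11, the ligand of the ureteric tip, moved the other way. It had 6.796, 8.16 and 9.83 CPM in control, then 1.22, 1.403 and 1.62 (day 2), 1.29, 0.884 and 0.533 (day 6) and 2.22, 4.71 and 3.49 (day 12). Every treated library was below every control library, and the day 12 libraries lay above those of day 2 and day 6. The fitted log2 change was -2.50 ± 0.29 at day 2, -3.13 ± 0.30 at day 6 and -1.25 ± 0.24 at day 12 (edgeR adjusted p = 1.91e-08, 8.09e-11 and 4.096e-05), and from day 6 to day 12 Wnt11 rose by 1.88 ± 0.34 (edgeR adjusted p = 8.93e-05).

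Wnt7b, a ligand that the ureteric epithelium uses in forming the medulla, had 43.7, 50.4 and 44.1 CPM in control, then 48.1, 48.6 and 41.8 (day 2), 16.4, 18.3 and 20.7 (day 6) and 14.6, 15.9 and 15.7 (day 12). Control and day 2 overlapped, and day 6 and day 12 were lower than both. edgeR put the log2 change at -0.01 ± 0.09 at day 2 (edgeR adjusted p = 0.971), -1.32 ± 0.10 at day 6 and -1.57 ± 0.10 at day 12 (edgeR adjusted p = 1.24e-13 and 1.89e-15).

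Wnt16 was the most abundant ligand per transcript length. In TPM, a unit corrected for transcript length, it stood at 138 ± 8.89 in control (mean ± SD, n = 3), beside 23.6 ± 1.23 for Wnt7b and 15.9 ± 1.19 for Wnt4. In CPM it had 120, 137 and 136 in control, then 104, 79.5 and 98.97 (day 2), 148, 149.8 and 142 (day 6) and 124, 136 and 121 (day 12). The day 2 libraries were the lowest, and control and day 12 overlapped. On the log2 scale the change against control was -0.46 ± 0.07 at day 2 (edgeR adjusted p = 1.68e-05), 0.16 ± 0.07 at day 6 (0.0543) and -0.04 ± 0.07 at day 12 (0.644). The day 6 value passed the threshold in other settings, among them RLE scaling (adjusted p = 0.0405) and a fit of the 2 groups alone (0.0125).

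Wnt5b, a ligand of the β-catenin-independent branch, had 17.1 ± 2.44 CPM in control and 14.7 ± 2.44 at day 2 (SD, n = 3). It rose to 22.3 ± 1.64 at day 6 (log2 0.38 ± 0.14, edgeR adjusted p = 0.0251) and 27.5 ± 5.78 at day 12 (log2 0.68 ± 0.14, adjusted p = 1.37e-04). The day 6 call was lost without control A (adjusted p = 0.0501), control B (0.128), day 6 A (0.1001) or day 6 B (0.0669). Wnt2b stood near 1 CPM, with 1.11 ± 0.156 in control and 1.83 ± 0.243 at day 12, and passed no contrast against control.

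Read as a mixture, Wnt16 made up 65.5% ± 1.07 (SD, n = 3) of the summed TPM of all Wnt genes in control, then 50.3% ± 4.20 (day 2), 62.0% ± 0.295 (day 6) and 55.0% ± 2.18 (day 12). The share of Wnt4 was 7.53% ± 0.0221, 17.7% ± 1.12, 18.6% ± 0.8996 and 22.8% ± 0.583. That of Wnt7b was 11.2% ± 0.869 in control and 3.29% ± 0.0633 at day 12, so Wnt4 stood below Wnt7b in every control library and above it in every treated library. The summed Wnt TPM was 211 ± 16.3 in control and 249 ± 14.6 at day 12. These shares are descriptions and were not tested.

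**Figure D2:**
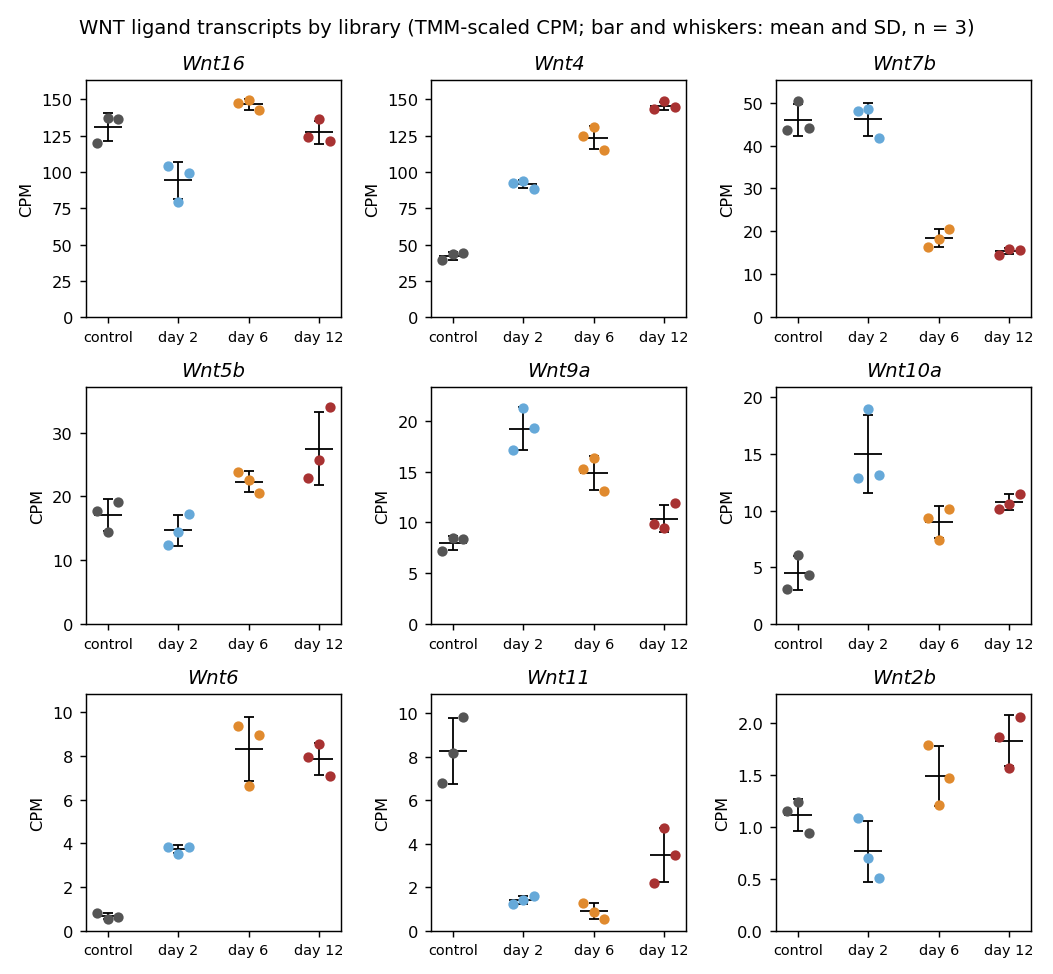
TMM-scaled CPM (y axis) of the 9 tested Wnt genes in each library (points) by group (x axis), with the mean and SD (n = 3). Wnt4 climbs from 39.0 CPM in the lowest control library to 148 in the highest day 12 library, Wnt9a and Wnt10a peak at day 2, and Wnt11 and Wnt7b end below control.

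The other 10 ligand genes were not tested. Wnt3a, Wnt5a and Wnt8a had no count in 102720081 counts over the 12 libraries, which allows a level of up to 0.0292 CPM (3 counts, counting error only). Wnt9b, the inducer of nephron formation in the ureteric bud, had 4 counts in all. Wnt10b had 73 counts, with 18 in the control libraries together, 24 at day 2, 15 at day 6 and 16 at day 12. Wnt7a had 29, of which 15 were in control and 9, 2 and 3 in the 3 treated groups, and Wnt2 had 8, with none in control or at day 2. Wnt1, Wnt3 and Wnt8b had 1 to 3 counts each.

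Of the frizzled receptors, 7 of 11 entries were tested. At day 2, 3 rose and 1 fell, beside 10.3% and 10.9% of all tested genes. At day 6 and day 12, 5 rose and 1 fell. Of all tested genes, 26.7% rose and 27.6% fell at day 6, and 26.1% rose and 26.6% fell at day 12. A list of 7 genes gives coarse shares. The frizzled with the highest TPM was Fzd6, at 44.9 ± 7.12 in control and 65.9 ± 2.24 at day 6. Fzd6, which acts in tissue polarity, had 108, 110 and 118 CPM in control, then 135, 147 and 133 (day 2), 158, 157 and 153 (day 6) and 146, 146 and 137 (day 12). Control libraries were the lowest and day 6 libraries the highest, with day 2 and day 12 overlapping between them. Against control, the log2 difference was 0.29 ± 0.06, 0.47 ± 0.06 and 0.35 ± 0.06 at the 3 days (edgeR adjusted p = 3.67e-04, 2.23e-08 and 6.99e-06).

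Fzd1, a receptor for several WNT proteins, had 13.6, 13.01 and 12.5 CPM in control, then 16.1, 15.9 and 11.4 (day 2), 36.98, 37.02 and 32.1 (day 6) and 35.2, 40.1 and 35.95 (day 12). Control and day 2 overlapped, as did day 6 and day 12, and the later pair lay above the earlier one. In log2 units the change was 0.10 ± 0.13 at day 2 (edgeR adjusted p = 0.692), 1.44 ± 0.11 at day 6 and 1.51 ± 0.11 at day 12 (edgeR adjusted p = 6.14e-13 and 1.54e-13).

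Fzd4, which also receives Norrin, had 60.9, 57.8 and 65.8 CPM in control, then 41.9, 36.7 and 40.1 (day 2), 23.4, 31.1 and 28.7 (day 6) and 28.6, 27.8 and 26.9 (day 12). It was the frizzled that fell: day 2 lay below control, and day 6 and day 12 overlapped below day 2. Its log2 change against control was -0.63 ± 0.09, -1.16 ± 0.09 and -1.15 ± 0.09 (edgeR adjusted p = 7.58e-07, 3.04e-13 and 2.98e-13). Its share of the summed frizzled TPM was 14.9% ± 0.5196 in control and 5.09% ± 0.295 at day 12, while that of Fzd1 was 5.22% ± 0.544 and 11.1% ± 0.403, a change of order between the pair that was not tested.

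The other tested frizzled genes moved by less than 2-fold. Fzd5 had 17.2 ± 2.06 CPM in control, then 20.6 ± 4.04 (day 2), 31.9 ± 1.102 (day 6) and 28.9 ± 3.16 (day 12) and rose at the later 2 days (log2 0.89 ± 0.12 and 0.74 ± 0.12, edgeR adjusted p = 4.87e-08 and 1.68e-06). Fzd2 rose from 16.7 ± 1.74 to 25.1 ± 2.83, 23.7 ± 0.949 and 22.8 ± 3.12 CPM, past the threshold at each day. Fzd7, a receptor common in stem and progenitor cells, rose from 52.2 ± 0.914 to 74.6 ± 13.2, 73.7 ± 5.08 and 78.3 ± 2.54 CPM, also at each day. Fzd3 stood at 9.25 ± 0.596 CPM in control and 9.26 ± 1.43 at day 12 and passed no contrast against control. Fzd8 had 9 counts over all libraries, Fzd9 19 and Fzd10 2, and Fzd10os had none.

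The co-receptors LRP5 and LRP6 are close relatives with an overlapping role. Lrp5 (ENSMUSG00000024913, GRCm38 chromosome 19, 3584828 to 3686564, - strand) had 205, 232 and 226 CPM in control, then 173, 180.1 and 167 (day 2), 112, 116 and 117 (day 6) and 82.96, 99.5 and 86.4 (day 12). Each later group lay below the one before it with no overlap. The fitted log2 change was -0.36 ± 0.06, -0.95 ± 0.06 and -1.30 ± 0.07 (edgeR adjusted p = 4.104e-05, 8.97e-15 and 1.85e-18).

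Lrp6 had 149.8 ± 6.46 CPM in control, then 144 ± 5.43 (day 2), 162 ± 7.33 (day 6) and 174 ± 4.06 (day 12). It rose at day 12 only among the 3 contrasts against control (log2 0.21 ± 0.06, edgeR adjusted p = 0.00188). At day 6 the value was 0.11 ± 0.06 (adjusted p = 0.0914), and it passed with limma on log2(TPM + 1) (0.0204). Per length, Lrp5 stood at 67.2 ± 4.19 TPM and Lrp6 at 26.9 ± 1.33 in control, and at 27.9 ± 3.27 and 33.8 ± 0.566 at day 12. Lrp5 was above Lrp6 in every control library (62.8 to 71.1 against 25.6 to 28.3 TPM) and below it in every day 12 library (25.3 to 31.6 against 33.5 to 34.5 TPM). Ror2, a receptor of WNT5A, had no count.

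R-spondins are secreted proteins that raise WNT signalling by removing the ligases RNF43 and ZNRF3, which clear frizzled receptors from the membrane. Rnf43, itself a target of the pathway in many tissues, had 18.8 ± 1.32 CPM in control, then 22.4 ± 4.53 (day 2), 30.7 ± 1.42 (day 6) and 33.3 ± 1.68 (day 12), and it rose at day 6 and day 12 (log2 0.70 ± 0.11 and 0.82 ± 0.11, edgeR adjusted p = 1.14e-06 and 4.44e-08). Znrf3 stood at 30.5 ± 2.22 CPM in control and 27.9 ± 0.4796 at day 12 and passed no contrast against control. None of the R-spondin genes was tested: Rspo1, Rspo2 and Rspo4 had 2, 3 and 4 counts and Rspo3 none. The antisense entry Rspo4os had 3 counts in control and 12 at day 2, 10 of them in library C, a ratio of 4.37 (exact 95% interval 1.18 to 24.1, counting error only). Strand use in the counting is not given, so Rspo4 and Rspo4os cannot be told apart.

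**Figure D3:**
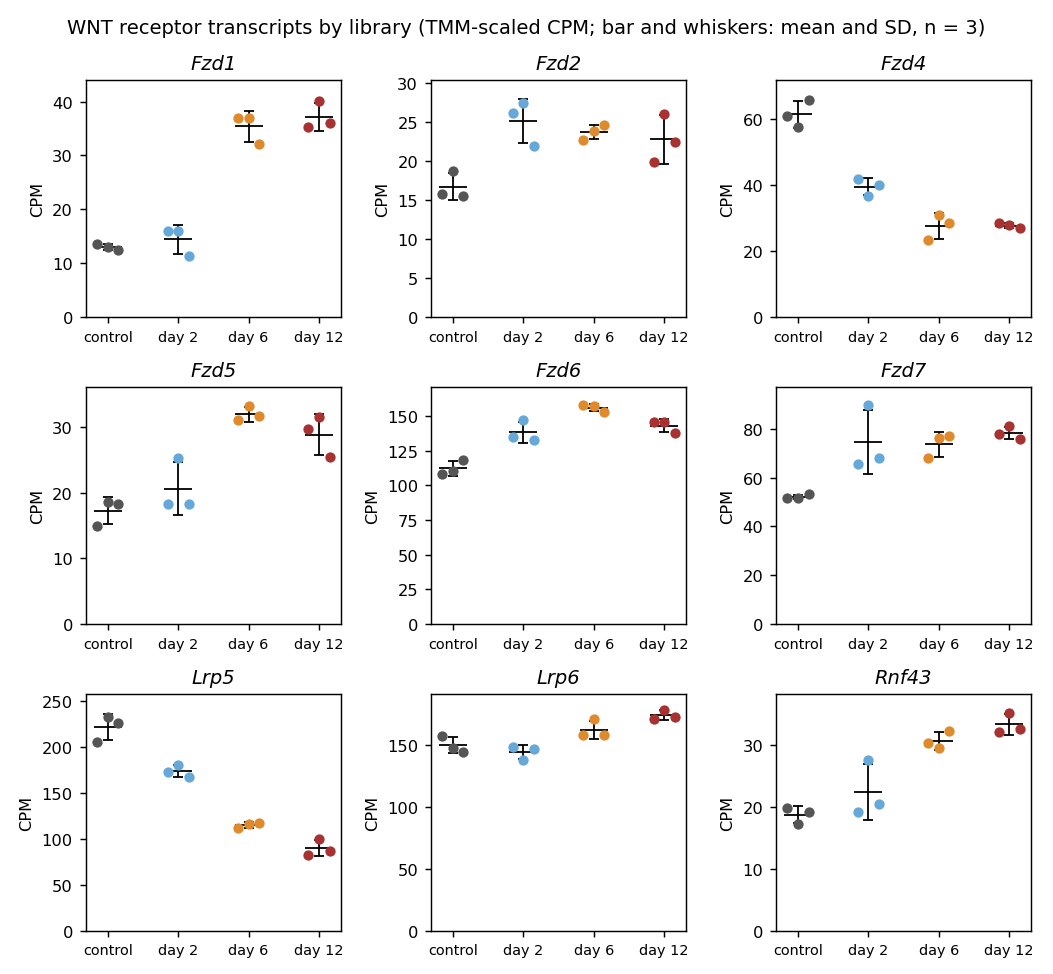
TMM-scaled CPM (y axis) of 6 frizzled genes, the co-receptors Lrp5 and Lrp6 and the ligase gene Rnf43 in each library (points) by group (x axis), with the mean and SD (n = 3). Lrp5 and Fzd4 step down from control, Fzd1 steps up between day 2 and day 6, and Lrp6 stays between 138 and 179 CPM.

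Of the 10 genes for secreted inhibitors and Kremen1, 3 were tested, and all 3 rose at day 6 and day 12. Of all tested genes, 26.7% and 26.1% rose at these days. Wif1 passed the filter through the later days, where it is high, and 3 genes are too few to read a share from. Dkk3 (ENSMUSG00000030772, GRCm38 chromosome 7, 112116017 to 112159057, - strand) codes for a secreted member of the Dickkopf family whose effect on WNT signalling differs between settings. It had 71.4, 79.97 and 72.9 CPM in control, then 99.98, 104 and 96.6 (day 2), 326, 339 and 329 (day 6) and 360.1, 361 and 354 (day 12). Each later group lay above the one before it, with the widest gap between day 2 and day 6. The rise was 1.34-fold at day 2, 4.44-fold at day 6 and 4.799-fold at day 12 (log2 0.42 ± 0.06, 2.15 ± 0.06 and 2.26 ± 0.06, edgeR adjusted p = 2.34e-06, 7.68e-26 and 1.39e-26).

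Wif1 codes for a secreted protein that binds WNT ligands directly. It had 0, 0 and 0.209 CPM in control, then 0.136, 0 and 0.342 (day 2), 0.895, 1.22 and 1.47 (day 6) and 3.73, 3.82 and 3.08 (day 12). The control and day 2 libraries held 0 to 4 counts each, and all day 6 and day 12 libraries lay above them. The control libraries together had 2 counts, day 6 had 31 and day 12 had 96, which gives depth-scaled ratios of 14.8 (exact 95% interval 3.78 to 128) and 44.9 (12.1 to 376), for counting error only. The edgeR adjusted p was 0.464 at day 2, 8.22e-05 at day 6 and 3.23e-09 at day 12.

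Kremen1, a membrane receptor for Dickkopf proteins, had 32.6 ± 3.296 CPM in control, then 29.9 ± 1.38 (day 2), 39.7 ± 0.739 (day 6) and 38.5 ± 2.48 (day 12). Its rises were small (log2 0.28 ± 0.09 and 0.23 ± 0.09, edgeR adjusted p = 0.00702 and 0.0232). Without control B both were lost (adjusted p = 0.0657 and 0.16), and the day 12 call was also lost without day 12 B (0.131) and with limma on log2(TPM + 1) (0.0669). Dkk1, Dkk2 and Dkk4 had no count in any library, and the frizzled-related decoy genes were scarce. Sfrp4 had 100 counts, with 16 in control and 20, 38 and 26 in the 3 treated groups. Sfrp2 had 13 counts and Sfrp1 2, and all 5 counts of Sfrp5 were in control libraries.

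Ctnnb1 (ENSMUSG00000006932, GRCm38 chromosome 9, 120929216 to 120960507, + strand), the gene for β-catenin, had the highest TPM of the 60 genes in control, 229.6 ± 22.4. It had 383, 385 and 406 CPM in control, then 605, 600 and 637 (day 2), 1235, 1319 and 1240.0 (day 6) and 1139, 1160.0 and 1182 (day 12). All treated libraries were above control, and day 12 lay just below day 6 (edgeR adjusted p = 0.07804 between them). The rise was 1.57-fold at day 2, 3.23-fold at day 6 and 2.97-fold at day 12 (log2 0.65 ± 0.05, 1.69 ± 0.05 and 1.57 ± 0.05, edgeR adjusted p = 3.42e-12, 3.04e-24 and 1.88e-23). β-catenin is also a part of adherens junctions, and its amount in the nucleus is set largely at the level of protein, which was not measured. Ulk4, on the opposite strand, shares 14.6% of the exon bases of Ctnnb1 and had 962 counts over all libraries, beside 89720 for Ctnnb1. Annotated antisense transcripts also share exon bases with Lef1 (13.8%), Fzd5 (17.8%), Wnt11 (8.80%), Wnt7b (6.62%), Tcf7l1 (4.56%), Axin2 (3.80%) and Fzd6 (3.16%), and these had 0 to 185 counts each over all libraries. Without known strand use, reads of a gene and its antisense partner cannot be told apart. The promoter sequence of Ctnnb1 from RefSeq (GRCm38.p6, chr9:120933150-120933399, + strand), 74.8% G and C, lies at a RefSeq start inside the gene as annotated and held neither motif.
Ctnnb1: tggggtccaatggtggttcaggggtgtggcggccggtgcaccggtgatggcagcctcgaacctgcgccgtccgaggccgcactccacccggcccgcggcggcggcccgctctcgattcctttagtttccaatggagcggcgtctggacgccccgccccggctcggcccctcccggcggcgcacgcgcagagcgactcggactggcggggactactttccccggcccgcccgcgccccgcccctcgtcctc

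Of the other 5 listed genes of this role, Axin1, Axin2, Apc and Nkd1 were tested and passed no contrast against control. Axin2, the most widely used readout of β-catenin activity, had 2.19, 2.91 and 2.51 CPM in control, then 2.04, 1.403 and 2.13 (day 2), 4.08, 2.54 and 4.001 (day 6) and 2.57, 2.92 and 4.62 (day 12). Day 2 lay below control, and day 6 and day 12 overlapped control. edgeR put the log2 change at -0.37 ± 0.32, 0.49 ± 0.28 and 0.43 ± 0.28 (edgeR adjusted p = 0.486, 0.149 and 0.2097), while the 4 groups differed in the F-test (adjusted p = 0.0424) and day 6 was above day 2 by 0.85 ± 0.30 (adjusted p = 0.0212). The difference between day 2 and day 6 did not pass in edgeR without day 2 B (adjusted p = 0.0569), without day 6 A (0.1006) or without day 6 C (0.07). With limma on log2(TPM + 1) the day 6 value against control passed (adjusted p = 0.0215).

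Axin1, a scaffold of the complex, stood at 105 ± 5.12 CPM in control, then 98.03 ± 6.17 (day 2), 109 ± 4.9 (day 6) and 108 ± 4.48 (day 12). Apc, the other scaffold, stood at 93.3 ± 3.58, 92.2 ± 2.49, 100.1 ± 4.03 and 93.2 ± 5.21 CPM, and its day 6 value passed with limma on log2(TPM + 1) (adjusted p = 0.00216). Nkd1, a feedback inhibitor that binds Dishevelled, had 0.882 ± 0.396 CPM in control and 1.39 ± 0.261 at day 12 and passed no contrast against control. Without day 2 A its day 2 value passed (edgeR adjusted p = 0.0118), and 7 of its 8 day 2 counts were in that library. Nkd2 had 25 counts in control and 9, 12 and 12 at the 3 days and was not tested.

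The TCF/LEF factors bring β-catenin to DNA, and all 4 genes were tested. Lef1 had 1.498, 0.553 and 0.836 CPM in control, then 2.31, 2.34 and 2.22 (day 2), 9.94, 9.72 and 8.94 (day 6) and 8.28, 7.29 and 8.11 (day 12). Control libraries were lowest, day 2 lay next, and day 6 was highest with no overlap between groups. The rise was 2.302-fold at day 2, 9.63-fold at day 6 and 7.96-fold at day 12 (log2 1.20 ± 0.33, 3.27 ± 0.25 and 2.99 ± 0.26, edgeR adjusted p = 0.00631, 2.39e-13 and 3.82e-12). The day 2 call was lost with limma on log2(TPM + 1) (adjusted p = 0.599), where the control libraries ran from 0.30 to 1.96 TPM.

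Tcf7l1, a factor that mostly represses targets until β-catenin binds, had 6.68, 6.78 and 7.21 CPM in control, then 9.79, 18.5 and 11.5 (day 2), 18.2, 16.4 and 16.9 (day 6) and 22.2, 19.5 and 20.9 (day 12). All treated libraries were above control, and day 2 B was the highest of its group and lay above the day 6 libraries. On the log2 scale the change against control was 0.87 ± 0.17, 1.31 ± 0.16 and 1.59 ± 0.16 (edgeR adjusted p = 2.002e-04, 1.396e-08 and 1.08e-10).

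Tcf7 had the highest TPM of the 4, 18.7 ± 0.706 in control and 23.3 ± 2.09 at day 6. Its CPM were 26.6, 26.1 and 26.97 in control, then 32.8, 34.1 and 29.2 (day 2), 28.3, 33.3 and 31.1 (day 6) and 33.1, 25.8 and 30.7 (day 12). Day 2 and day 6 lay above control and day 12 overlapped it, and the log2 fold changes of 0.25 ± 0.10, 0.21 ± 0.10 and 0.17 ± 0.10 did not pass (edgeR adjusted p = 0.0799, 0.0686 and 0.159). At each day a setting with 1 library left out passed, with adjusted p = 0.0322 at day 2 without day 2 C, 0.0378 at day 6 without day 6 A and 0.0392 at day 12 without day 12 B. Tcf7l2 rose at day 12, from 19.7 ± 0.294 to 24.8 ± 2.64 CPM (log2 0.33 ± 0.12, edgeR adjusted p = 0.0159), a call lost with limma on log2(TPM + 1) (0.211), without day 12 A (0.0749) and without day 12 B (0.0661).

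**Figure D4:**
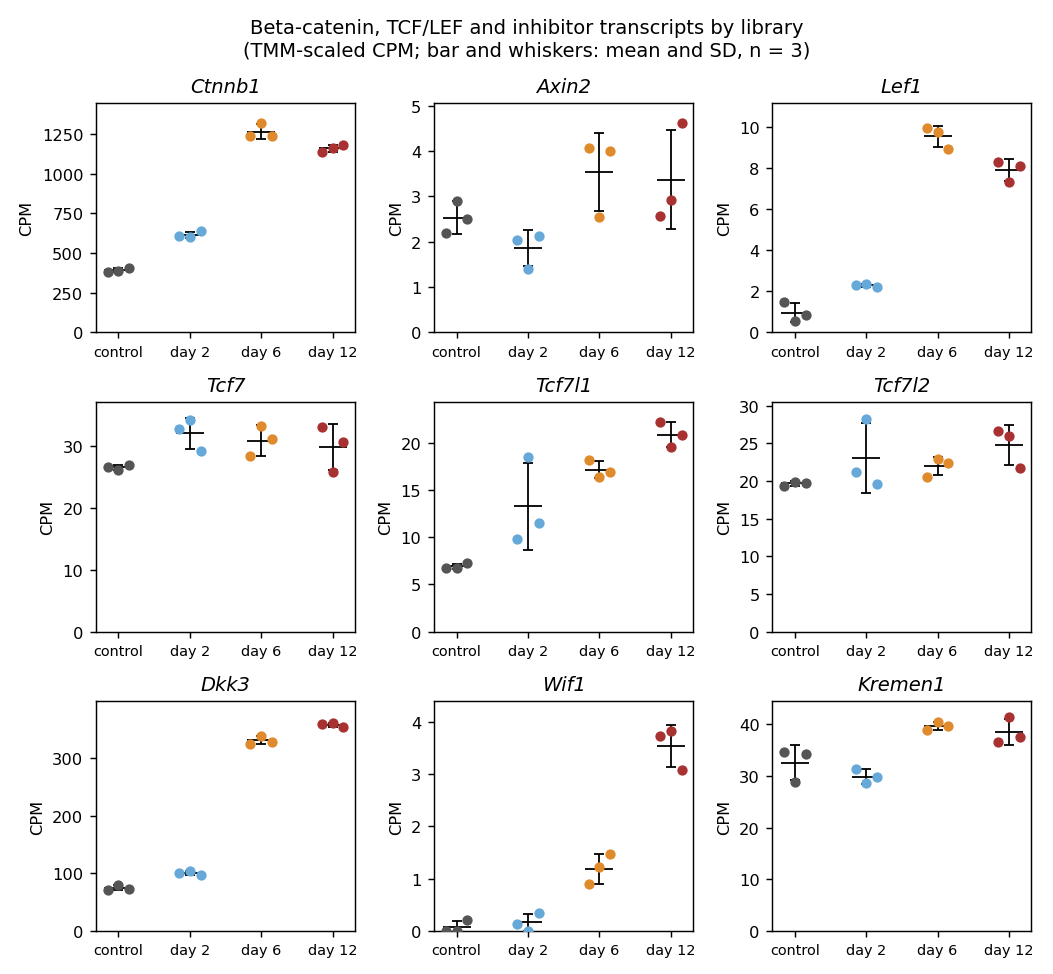
TMM-scaled CPM (y axis) of Ctnnb1, Axin2, the 4 TCF/LEF genes and the inhibitor genes Dkk3, Wif1 and Kremen1 in each library (points) by group (x axis), with the mean and SD (n = 3). Ctnnb1, Dkk3 and Lef1 have their widest step between day 2 and day 6, where the Axin2 libraries spread from 2.54 to 4.08 CPM at day 6.

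Between the days, 16 of the 32 genes rose and 5 fell from day 2 to day 6, beside 22.6% and 22.3% of all tested genes. Ctnnb1 rose by 1.04 ± 0.05 on the log2 scale, Dkk3 by 1.73 ± 0.06, Fzd1 by 1.35 ± 0.12 and Lef1 by 2.06 ± 0.22, while Wnt7b changed by -1.32 ± 0.10 and Lrp5 by -0.59 ± 0.07 (edgeR adjusted p from 1.43e-22 for Dkk3 to 3.65e-09 for Lrp5). From day 6 to day 12, 3 rose (Wnt4, Wnt11, Wif1) and 3 fell (Wnt9a, Wnt16, Lrp5), beside 11% of all tested genes in each direction. The rise of Wnt4 there was lost without day 6 C (edgeR adjusted p = 0.0589) and the fall of Wnt16 without any 1 of 5 libraries (0.0603 to 0.131). Over the 4 groups, 26 of the 32 differed in the F-test, beside 65.1% of all tested genes.

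The wider pathway was read from lists of other WNT genes, whose counts stand beside rises and falls of 10.3% and 10.9% of all tested genes at day 2, 26.7% and 27.6% at day 6, and 26.1% and 26.6% at day 12. Of 8 tested genes of ligand processing and secretion, 2 rose and 2 fell at day 2, 2 and 3 at day 6, and 3 and 2 at day 12, too few genes to read a share from. Trabd2b, which codes for a protease that inactivates WNT ligands, fell from 11.6 ± 1.42 CPM in control to 1.19 ± 0.313, 0.953 ± 0.271 and 1.39 ± 0.776 (log2 -3.18 ± 0.28, -3.61 ± 0.29 and -3.05 ± 0.27, edgeR adjusted p = 4.997e-11, 7.703e-13 and 6.91e-12). Porcn, the enzyme that attaches the lipid to WNT proteins, rose from 3.85 ± 0.547 to 7.37 ± 1.995, 11.2 ± 0.924 and 6.53 ± 1.73 CPM (log2 0.87 ± 0.22, 1.55 ± 0.20 and 0.77 ± 0.22, edgeR adjusted p = 0.00388, 5.79e-08 and 0.003197). The cargo genes Tmed5 and Snx3 moved by less than 2-fold, Tmed5 falling at day 2 and Snx3 at day 6 and day 12.

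Of 6 further receptors tested, 2 rose at day 2, and 3 rose and 1 fell at day 6 and at day 12. The R-spondin receptor genes moved apart at the later days: Lgr4 had 115 ± 5.77 CPM in control, 194 ± 9.12 at day 6 and 163 ± 3.95 at day 12, and Lgr6 had 66.4 ± 6.45, 24.6 ± 3.46 and 22 ± 1.58 (log2 at day 12 0.50 ± 0.06 and -1.60 ± 0.10, edgeR adjusted p = 7.45e-09 and 7.92e-16). Lgr5, with at most 0.691 CPM on average in a group, was not tested. The polarity receptor Ptk7 and Adgra2, a receptor for WNT7 signals, rose at day 6 and day 12.

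The 4 tested genes of further extracellular or membrane inhibitors gave 2, 4 and 3 rises at the 3 days and no fall. Igfbp4, a binding protein of insulin-like growth factors that also blocks LRP6, rose from 14.2 ± 0.974 CPM in control to 67.03 ± 7.798 at day 6 and 90.2 ± 2.23 at day 12 (log2 2.23 ± 0.10 and 2.65 ± 0.10, edgeR adjusted p = 5.598e-20 and 1.53e-22). Apcdd1, a membrane inhibitor of WNT signalling, rose from 17.3 ± 2.76 to 27.7 ± 1.1, 39.5 ± 3.28 and 48.9 ± 2.299 CPM (log2 0.66 ± 0.11, 1.18 ± 0.10 and 1.48 ± 0.10). Tpbg rose at all 3 days and Dkkl1 at day 6. Of the 7 inhibitor genes tested here and above, Dkk3, Wif1, Igfbp4 and Apcdd1 had their highest mean at day 12, and Kremen1, Tpbg and Dkkl1 at day 6.

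Of 23 tested genes of Dishevelled and the destruction complex, 3 rose and 4 fell at day 2 (13.0% and 17.4%), 9 and 3 at day 6 (39.1% and 13.0%), and 7 and 6 at day 12 (30.4% and 26.1%). The day 12 shares are near those of all tested genes and are not a result about the list. Dact2, a Dishevelled-binding modulator, fell from 84.5 ± 1.73 to 58.9 ± 4.995, 37.5 ± 2.08 and 32.5 ± 1.73 CPM (log2 -0.51 ± 0.08, -1.17 ± 0.08 and -1.38 ± 0.08). The casein kinase genes Csnk1e and Csnk1g2 rose at day 6 and day 12 by less than 2-fold. Csnk1g2 rose at day 2 too (log2 0.30 ± 0.06, edgeR adjusted p = 4.22e-04). Dvl1 fell at day 2, rose at day 6 and fell at day 12, each by less than 2-fold.

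Of 19 nuclear cofactors, 4 rose and 3 fell at day 2 (21.1% and 15.8%), 8 and 6 at day 6 (42.1% and 31.6%), and 7 and 8 at day 12 (36.8% and 42.1%). Tnik, a kinase that phosphorylates TCF7L2, rose from 49.8 ± 3.605 CPM in control to 72.3 ± 6.34, 221 ± 4.53 and 116 ± 3.95, with its highest level at day 6 (log2 0.54 ± 0.07, 2.15 ± 0.07 and 1.21 ± 0.07). The corepressor genes Tle3 and Tle4 rose at day 6 and day 12. In the planar polarity and calcium branch, with 27 genes, 7 rose and 2 fell at day 2 (25.9% and 7.41%), 9 and 6 at day 6 (33.3% and 22.2%), and 10 and 7 at day 12 (37.0% and 25.9%). Prickle1, a core polarity gene, rose from 53.8 ± 3.39 to 146 ± 3.98 CPM, Daam1 from 32.8 ± 1.85 to 76.7 ± 3.47 and the calcineurin gene Ppp3ca from 147 ± 4.43 to 277 ± 8.42, while the polarity cadherin gene Celsr2 fell from 201 ± 9.35 to 95.5 ± 4.39 CPM.

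Of 19 β-catenin target genes outside the 60, 8 rose and 2 fell at day 2 (42.1% and 10.5%, beside 10.3% and 10.9% of all tested genes). At day 6, 11 rose and 3 fell (57.9% and 15.8%, beside 26.7% and 27.6%), and at day 12, 10 and 4 (52.6% and 21.1%, beside 26.1% and 26.6%). The median log2 fold change of the 19 was 0.44, 0.32 and 0.52, beside -0.0015, -0.0060 and -0.0028 over all tested genes. With the tested target genes among the 60 included, the list held 25 genes, and 9 rose and 2 fell at day 2 (36% and 8%). For these 25, 13 rose and 3 fell at day 6 (52% and 12%), and 12 and 4 at day 12 (48% and 16%). Their median log2 fold change was 0.21, 0.32 and 0.52. Ccn5 rose from 0.535 ± 0.265 CPM to 5.33 ± 0.342, 15.3 ± 1.64 and 24.01 ± 2.27 (log2 3.22 ± 0.30, 4.77 ± 0.24 and 5.41 ± 0.23, edgeR adjusted p = 1.296e-10, 3.19e-18 and 1.17e-20). Ccn4 rose from 31.2 ± 1.76 to 67.9 ± 2.29, 104 ± 1.404 and 84.8 ± 5.23 CPM, Id2 from 78.7 ± 2.88 to 216 ± 8.91 at day 12 and the adhesion receptor gene Cd44 from 62.6 ± 4.27 to 176 ± 12.8. Each of the 4 is also regulated by other pathways. Notum, a target that codes for a WNT-inactivating enzyme, and Lgr5 were too low to test, and Axin2 passed no contrast against control.

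**Figure D5:**
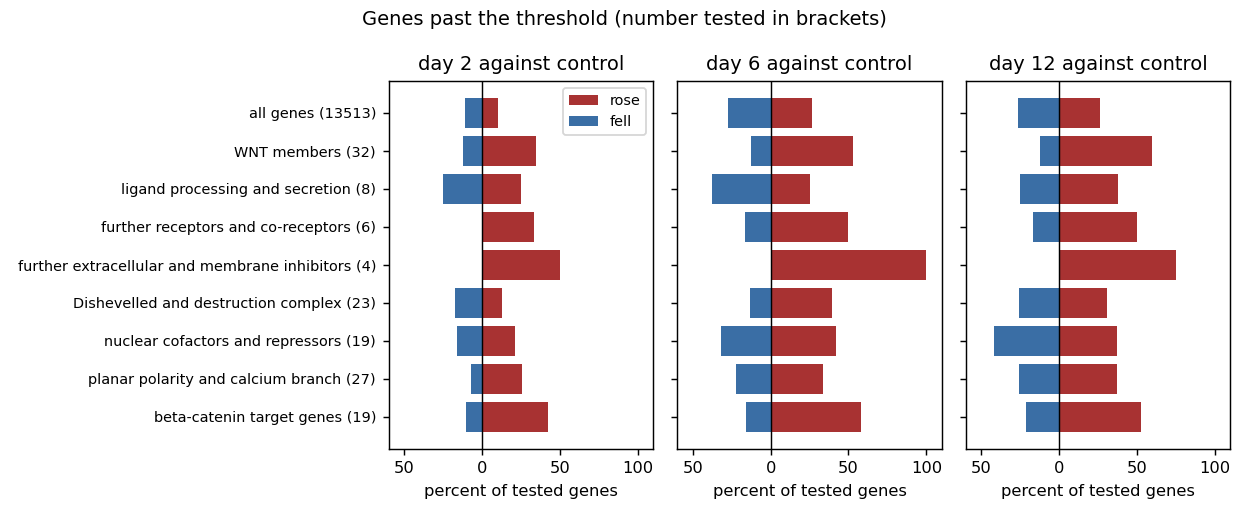
Percent of tested genes (x axis) that rose (right of 0) or fell (left of 0) against control for all genes, the 32 tested WNT genes and 7 lists of other pathway genes, 1 panel a day. The bars for the 32 reach 34.4%, 53.1% and 59.4% to the right, beside 10.3%, 26.7% and 26.1% for all genes; lists with 4 to 8 tested genes give coarse percentages.

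Markers of other cell types moved over the same libraries. Of all tested genes, 10.3% rose and 10.9% fell at day 2, 26.7% and 27.6% at day 6, and 26.1% and 26.6% at day 12. Marker lists with 2 to 9 tested genes give coarse shares. Of 9 tested genes of fibroblasts and smooth muscle, out of 13, 4 rose and 1 fell at day 2, 7 and 1 at day 6, and 7 and 0 at day 12. Their summed level was 48.4 to 52.9 CPM in control, 92.1 to 102 at day 2, 107 to 139 at day 6 and 396 to 470 at day 12, most of it Acta2 (293 ± 26.4 CPM at day 12) and Tagln (54.2 ± 11), while Pdgfra and Col3a1 had no count. The 16 proximal tubule markers summed to 1893 to 1992 CPM in control and 917 to 1147 at day 12. Of the 9 tested, 2 rose and 6 fell at day 6 and 1 rose and 6 fell at day 12, with Cdh16 falling from 1103 ± 53.5 to 37.9 ± 3.67 CPM. The sum fell by less than Cdh16 alone did, so it does not describe the other markers. The 9 endothelial markers summed to 30.3 to 31.4 CPM in control and 48.1 to 50.1 at day 12, with Cdh5 and Kdr at 0. Of 2 tested, 1 rose at each day and none fell. The 9 leukocyte markers summed to 33.3 to 39.99 CPM in control and 33.1 to 34.5 at day 12, with Cd3e and Itgam at 0. Of 4 tested, 1 fell at day 2, 1 rose at day 6, and 3 rose and 1 fell at day 12. The leukocyte sum therefore does not describe the single markers. The 10 markers of the collecting duct and distal tubule summed to 7.195 to 11.6 CPM in control and 6.53 to 7.18 at day 12, with Aqp2 at 0. Their part in the WNT results was not tested.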

How the data were processed

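Tools named in the submitters' processing notes are STAR 2.7.8a, RSEM 1.3.3, cutadapt 2.3 and FastQC 0.11.8, and the build is GRCm38. The annotation release, strand use and filters are not given in the sources used here. The authors deposited expected counts of RSEM as whole numbers, with no normalization, and a separate table of TPM. Library totals ran from 4326667 to 11654959 counts, and no library was left out.

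The counts were analysed in R 4.3.3 with edgeR 4.0.16: filterByExpr by group kept 13513 genes, TMM scaled the libraries, and 1 robust quasi-likelihood model of the 4 groups covered all 12 libraries, with 8 residual degrees of freedom. Tests were two-sided, with Benjamini-Hochberg adjustment over the 13513 genes and a threshold of 0.05. The procedure was tested on simulated data. Ratios of low counts carry exact 95% intervals, and a count of 0 was read against 3 counts. Gene positions are from GENCODE M21 and promoters from RefSeq (GRCm38.p6).

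The 60 genes and the lists were chosen with earlier results of these data known, and support nothing independently. Values per library are given for genes past the threshold with at least a 2-fold change against control or with the highest mean TPM of their role, and up to 4 genes of each further list, those with the smallest F-test p, are named. Some genes that the rule allows are left out here. Alternatives were DESeq2 1.42.0, RLE scaling, other filters on low counts, limma 3.58.1 on log2(TPM + 1) and log2(TPM + 0.1), only the 2 groups compared, a replicate block, and each library left out in turn.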

Additional observations from a re-analysis of the deposited data

Results flagged for a closer look

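For 27 values the change against control differed between 2 days, by the test between those days in the same edgeR fit (adjusted p under 0.05). The days compared share the same control libraries. From day 2 to day 6 the difference on the log2 scale was positive for Lef1 (2.06), Wif1 (2.39), Dkk3 (1.73), Fzd1 (1.35), Wnt6 (1.14), Ctnnb1 (1.04), Axin2 (0.85), Fzd5 (0.68), Wnt16 (0.62), Wnt5b (0.58), Rnf43 (0.50), Tcf7l1 (0.45), Wnt4 (0.44), Kremen1 (0.40), Fzd6 (0.18) and Lrp6 (0.17). It was negative for Wnt7b (-1.32), Wnt10a (-0.70), Lrp5 (-0.59), Fzd4 (-0.53) and Wnt9a (-0.35).

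From day 6 to day 12 the difference was positive for Wnt11 (1.88), Wif1 (1.58) and Wnt4 (0.23) and negative for Wnt9a (-0.52), Lrp5 (-0.36) and Wnt16 (-0.21). Some of these were lost when 1 library was left out: the Axin2 difference was lost without day 2 B, day 6 A or day 6 C (adjusted p = 0.0569, 0.1006 and 0.07), that of Fzd6 without day 2 C (0.0506), that of Lrp6 without day 2 B or day 6 B (0.0517 and 0.121), and that of Tcf7l1 without day 2 A, day 2 C or day 6 A (0.144, 0.0891 and 0.0656). The Wnt9a difference from day 2 to day 6 was lost without day 2 B (0.0999), day 2 C (0.08597), day 6 A (0.0570) or day 6 C (0.131) and with DESeq2 (0.0685). The Wnt4 difference from day 6 to day 12 was lost without day 6 C (0.0589), and that of Wnt16 without any 1 of 5 libraries (0.0603 to 0.131).
With limma on log2(TPM + 1), the differences of Fzd6 (adjusted p = 0.5996), Tcf7l1 (0.148) and Wnt9a (0.218) from day 2 to day 6 and of Wnt4 (0.163) and Wnt16 (0.0922) from day 6 to day 12 were lost. With log2(TPM + 0.1) the difference of Wif1 from day 6 to day 12 (log2 1.16, adjusted p = 0.234) and that of Wnt10a from day 2 to day 6 (0.0504) were lost too.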

How the results depend on the processing

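Of 160 results (32 genes, 5 contrasts), 86 passed the threshold, and none reversed. Under the 20 alternatives, 71 of the 86 held wherever the gene was tested. Against control, 53 of 59 calls did so. A gene that an alternative did not test was not counted as lost. With only the 2 groups compared, 29 genes were tested for day 2 against control. That setting tested 30 genes for day 6 against control and 30 for day 6 against day 2. Counts of genes stayed within 1.5 times of those reported except for 3: with limma on log2(TPM + 0.1), 3 genes fell from day 2 to day 6 (5 reported) and 1 rose from day 6 to day 12 (3 reported), and with only the 2 groups compared 5 fell from day 6 to day 12 (3 reported). Leaving out each library in turn gave 11 to 12 rises at day 2, 16 to 19 at day 6 and 18 to 19 at day 12. Limma on log2(TPM + 1) moved the share of higher values among all calls to 61.9% from 49.2% at day 6 against control, to 70.9% from 50.4% for day 6 against day 2 and to 36.0% from 49.9% for day 12 against day 6, and the median log2 difference of all genes for day 6 against day 2 was then 0.1151 (0.1298 with log2(TPM + 0.1)), beside -0.0017 in the edgeR fit, so differences in TPM between those days are relative to that median.

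Deviations of same-letter libraries correlated at -0.149 to 0.112, and those of different-letter libraries at -0.109 to 0.108. No pairing by the letters A, B and C was seen, but with 3 libraries a group a weak one could be missed. A replicate block changed 1 call, that of Wnt16 from day 6 to day 12 (edgeR adjusted p = 0.0511). Genes under about 1 CPM rest on few counts, and a difference there was not detectable at this depth unless large.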
